A study of Homo sapiens with 6 samples.

Results

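Cohesin is a ring-shaped complex that holds and extrudes loops of chromatin, and SMC1 is one of its core subunits. The insulator protein CTCF binds a DNA motif at which extruding cohesin is held back, so CTCF sites are the best known positions of cohesin along the chromosomes of mammalian cells. Cohesin is also known from active promoters, enhancers and the bodies of strongly transcribed genes. Peaks of cohesin are usually narrow, and a stretch of several kilobases inside a single called peak is the exception.

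Wide SMC1 domains were examined in CUT&Tag data from IMR90, a widely used strain of human fetal lung fibroblasts that stops dividing after long culture. In this assay a transposase tethered to an antibody cuts the chromatin around the protein of interest, and the released fragments are read by sequencing. The members were selected on the width of the listed SMC1 peaks: in each of the 3 SMC1 lists, peaks on chromosomes 1 to 22 and X that spanned 2000 bp or more were kept, and those of different lists that overlapped by 1 bp or more were merged into 1 domain. The control list gave 424 wide peaks of 14883, the ICM list 175 of 17809 and the senescent list 446 of 12927. Merging gave 801 domains. They lay in 800 of the 22580 regions formed when SMC1 peaks of any width were merged in the same way, and the other 21780 regions, which hold no wide peak, are called narrower regions here. Width and presence in the SMC1 lists therefore chose the domains, and both are given as a description without a test.

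The series held 6 libraries, 1 for each antibody and condition. The control cells carried p number 16 for SMC1 and 21 for CTCF. ICM-treated cells, p number 16 for both antibodies, had received inflachromene, a small molecule that binds HMGB proteins, for 6 days according to the CTCF label, while the SMC1 label gives no number of days. The senescent cells carried p number 34, and their titles name no treatment, so that the condition was taken from the design of the series. With 1 library per group there is no measure of variation between cultures, the p number cannot be told apart from senescence for either protein or from ICM treatment for CTCF, and all intervals below (exact 95% intervals for shares, order-statistic intervals for medians) cover counting over regions only. The depth of the libraries is unknown here. In bulk libraries, fewer cells with an occupied site and less signal per cell cannot be told apart.

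Promoters were the place in genes most often covered by the domains, so their sequences are shown first. The 5 windows below are the 250 bases before the annotated start of genes that name 5 of the most extended or listed domains (RefSeq, GRCh38.p14, 5′ to 3′), with every match to 3 searched motifs in capitals. The motifs were the core of the CTCF consensus, the TATA box TATAAA and the GC box GGGCGG, each searched on both strands, and no match overlapped another kind in these windows. THBS1 encodes the matricellular protein thrombospondin 1 (chr15:39580829-39581078, plus strand). SLC2A1 encodes the glucose transporter GLUT1 (chr1:42958869-42959118, minus strand). MT2A encodes a metallothionein, a metal-binding protein (chr16:56608334-56608583, plus strand). SPRY4 encodes a feedback inhibitor of receptor tyrosine kinase signalling (chr5:142324248-142324497, minus strand). EGR1 encodes an immediate early zinc finger transcription factor (chr5:138465229-138465478, plus strand).
THBS1: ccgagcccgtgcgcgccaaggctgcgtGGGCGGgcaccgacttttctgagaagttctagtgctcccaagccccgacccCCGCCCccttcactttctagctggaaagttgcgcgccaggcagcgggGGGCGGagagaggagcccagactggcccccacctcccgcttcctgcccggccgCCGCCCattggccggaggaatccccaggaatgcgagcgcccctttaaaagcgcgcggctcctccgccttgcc
SLC2A1: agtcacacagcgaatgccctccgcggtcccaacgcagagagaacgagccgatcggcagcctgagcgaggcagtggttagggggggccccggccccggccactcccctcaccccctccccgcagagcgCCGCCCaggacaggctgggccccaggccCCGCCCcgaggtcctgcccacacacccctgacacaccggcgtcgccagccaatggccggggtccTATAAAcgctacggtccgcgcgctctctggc
MT2A: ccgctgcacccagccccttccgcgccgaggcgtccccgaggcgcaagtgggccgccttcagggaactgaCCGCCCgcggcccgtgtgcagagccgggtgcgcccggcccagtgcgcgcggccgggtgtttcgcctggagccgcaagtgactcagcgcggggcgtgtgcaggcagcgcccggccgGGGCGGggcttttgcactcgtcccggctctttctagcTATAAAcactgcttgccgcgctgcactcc
SPRY4: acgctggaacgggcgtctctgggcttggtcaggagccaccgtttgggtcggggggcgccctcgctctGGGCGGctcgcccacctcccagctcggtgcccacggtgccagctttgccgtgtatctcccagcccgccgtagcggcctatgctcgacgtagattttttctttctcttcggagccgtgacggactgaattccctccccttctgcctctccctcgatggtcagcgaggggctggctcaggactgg
EGR1: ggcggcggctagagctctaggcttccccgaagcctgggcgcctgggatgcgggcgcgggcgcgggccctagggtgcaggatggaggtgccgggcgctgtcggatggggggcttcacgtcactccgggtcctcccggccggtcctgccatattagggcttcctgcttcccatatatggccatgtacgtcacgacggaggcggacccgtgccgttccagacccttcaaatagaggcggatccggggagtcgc
All 5 windows were rich in G and C, from 65.6% in SPRY4 to 73.2% in MT2A. The THBS1 window held 4 GC boxes, SLC2A1 and MT2A each held 2 GC boxes and 1 TATA box, SPRY4 held 1 GC box and EGR1 held none of the searched motifs. None of the 5 held the CTCF core. A match is a description of the letters and not of binding.

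Across all promoters of the RefSeq table, 683 windows of 537 genes lay wholly inside a domain. Of the 448 protein-coding genes whose 5′ end a domain covered, 359 were in the table. The GC box was present in 72.9% (69.4 to 76.2%) of the windows inside domains, in 69.3% of 8031 windows inside narrower regions and in 42.7% of all 34961 windows of the table. The CTCF core was present in 3.37% (2.15 to 5.01%) of the windows inside domains, 3.05% of those inside narrower regions and 2.02% of all windows. The TATA box was present in 6.30% (4.59 to 8.39%), 3.69% and 10.7% of windows in the same order. Windows inside domains and inside narrower regions thus resembled each other in the GC box and the CTCF core, while the TATA box was more frequent inside domains than inside narrower regions and less frequent than in the table as a whole. Where a domain carried a CTCF peak in all 3 CTCF lists, 16 of 323 windows (4.95%, 2.86 to 7.92%) held the CTCF core, and where it carried no CTCF peak 1 of 166 did (0.602%, 0.0152 to 3.31%). These windows came from 250 and 135 genes. Several windows of 1 gene were counted apart, so the intervals in this paragraph may be too narrow.

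Most domains were only a little wider than the limit. The median span was 2344 bp (2304 to 2382 bp), 517 domains spanned less than 2500 bp, and 122 spanned 3000 bp or more. The largest spanned 6990 bp. At the limit itself, the domain over LOC124900958 (chr5:34486161-34488161) was inside with 2001 bp, while regions over CKS1B (chr1:154973563-154975561) and MYL9 (chr20:36541753-36544843) were outside with a widest peak of 1999 bp. Neighbours on either side of the limit therefore differed by a few base pairs, and the limit marks no gap in the widths.

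Most domains were wide in a single list. The wide peak was held by 1 list alone in 614 domains, of which 265 (33.1%) were wide in control, 63 (7.87%) in ICM and 286 (35.7%) in senescent cells. A further 131 domains were wide in 2 lists, with 75 shared by control and senescent, 27 by control and ICM and 29 by ICM and senescent. All 3 lists held 56 domains (6.99%) as wide. These counts follow from how many wide peaks each list contributed, and the ICM list contributed the fewest. With the 175 widest SMC1 peaks of each list instead, 390 domains were formed and 7.95% (5.46 to 11.1%) were wide in all 3 lists.

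**Figure D1:**
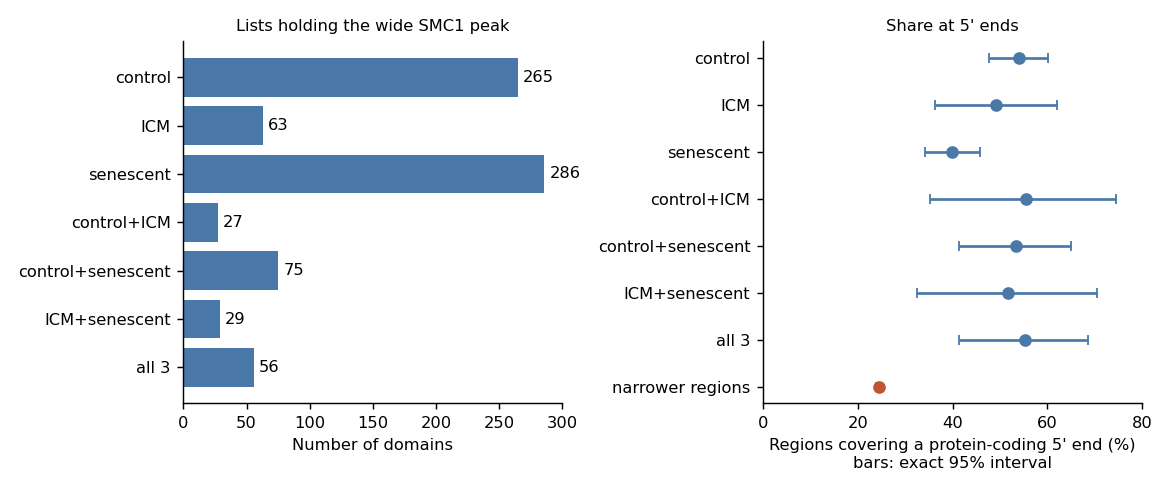
Left, the number of domains by the lists that hold the wide SMC1 peak. Right, the share of regions that cover the 5′ end of a protein-coding gene in each of these classes and in narrower SMC1 regions, as points with exact 95% intervals; the 286 domains wide in senescent cells alone sit lowest among the classes at 39.9%, and narrower regions sit at 24.4%.

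Most domains that were wide in a single list held narrower SMC1 peaks in the others. All 3 lists held a peak at 205 of the 265 domains wide in control alone (77.4%), 56 of the 63 wide in ICM alone (88.9%) and 225 of the 286 wide in senescent cells alone (78.7%). A senescent peak was missing at 50 of the 265 control domains (18.9%), and an ICM peak at 47 of the 286 senescent domains (16.4%). Counting also the domains wide in several lists, in 671 of the 801 domains (83.8%) each of the 3 lists held an SMC1 peak of some width, compared with 34.8% of narrower regions, and 34 domains were met by 1 list only. The median span was 2344 bp at domains and 974 bp at narrower regions, and a wider interval meets peaks more readily. The part of span and signal in this contrast was not tested. At the 265 domains wide in control alone, the median widest peak was 2237 bp in control, 1158 bp in the 242 domains with an ICM peak and 1333 bp in the 215 with a senescent peak. At the 286 domains wide in senescent cells alone, it was 2300 bp in senescent cells, 1350 bp in the 251 domains with a control peak and 1197 bp in the 239 with an ICM peak. At the 63 domains wide in ICM-treated cells alone, it was 2141 bp in ICM, 1404 bp in control and 1318 bp in senescent cells. At most domains wide in a single list, the other lists thus also held a peak somewhere in the domain, below the width limit by the rule.

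The ICM list held the domains as several peaks more often than the other lists did. Of the 671 domains with SMC1 peaks in all 3 lists, the ICM peak was the narrowest in 351, the control peak in 161 and the senescent peak in 159. At least 2 ICM peaks lay in 168 of 801 domains (20.97%, 18.2 to 23.96%), compared with 78 domains in control (9.74%) and 66 in senescent cells (8.24%). At narrower regions the ICM list also held 2 or more peaks most often, at 0.670%, compared with 0.257% in control and 0.202% in senescent cells, and the median ICM peak was the narrowest over whole lists at 754 bp, beside 911 bp in control and 1005 bp in senescent cells. At the 63 domains wide in ICM alone, the control and the senescent list each held 2 or more peaks at 13 (20.6%). Of the 73 domains wide in both control and senescent cells that held any ICM peak, 28 (38.4%, 27.2 to 50.48%) held 2 or more, and ICM peaks covered a median of 58.2% of their span. The rule itself favours such domains, since it asks for width in another list. Joining peaks of the same list less than 1000 bp apart before applying the limit raised the number of domains to 1468 and the share wide in all 3 lists to 15.5%.

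Wide peaks were not simply the tallest. Ranked by highest signal within their own list, wide SMC1 peaks had a median percentile of 71.5 in control, 75.1 in ICM and 65.5 in senescent cells. Their mean coverage was 6.71 in control where all SMC1 peaks had a median of 6.76, 5.17 against 5.56 in ICM and 4.05 against 4.32 in senescent cells, each on the scale of its own list. Wide peaks made up 2.85%, 0.983% and 3.45% of the 3 lists and held 7.37%, 2.96% and 7.83% of the listed signal.

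Of the 10 domains of largest span, 7 covered the 5′ end of a protein-coding gene, 2 lay within a gene body and 1 lay between protein-coding genes, and 6 were wide in all 3 lists.

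The largest lay within the body of COL1A1, which encodes the main chain of type I collagen (chr17:50185418-50192407, 6990 bp). Its widest SMC1 peak measured 2453 bp in control, 1436 bp with ICM and 6990 bp in senescent cells. Only the senescent list thus held the stretch as 1 peak, while the control list held it in separate pieces. CTCF peaks of 12115 bp in control, 4194 bp in ICM and 7661 bp in senescent cells overlapped it, and those of control and senescent cells were the widest CTCF peaks at any domain in their lists. A second domain in the body (chr17:50194861-50198837, 3977 bp) was 3977 bp wide in senescent cells, 882 bp in ICM and absent from the control list. The last of the 3 domains of this gene covered the 5′ end (chr17:50199778-50202121, 2344 bp), where the SMC1 peak was widest in ICM at 2344 bp, with 2152 bp in senescent cells. The control list held this stretch as separate peaks of 1257 and 1064 bp. The widest peak was thus in the senescent list at both domains in the body and in the ICM list at the 5′ end. By highest signal within its list, the senescent peak of the largest domain stood at percentile 81.35. The control pieces there stood at 1.62 and 5.47 and the ICM peak at 1.39. At the second domain the senescent peak stood at 5.36 and the ICM peak at 35.05. How far the calling threshold split, joined or left out such low peaks was not tested. With domains on either flank, 5 domains lay between chr17:50181052 and chr17:50212180.

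**Figure D2:**
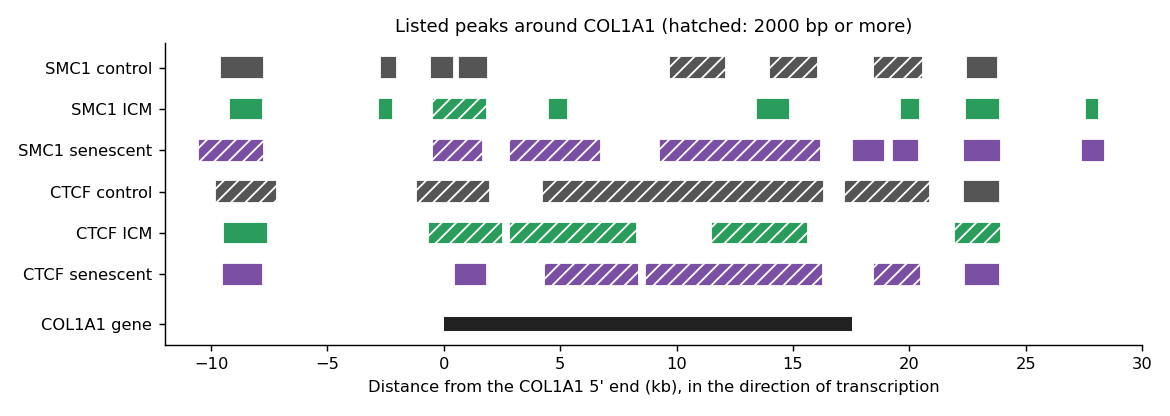
Listed SMC1 and CTCF peaks around COL1A1 in 6 lists, plotted by distance in kb from the annotated 5′ end in the direction of transcription, with the gene as the black bar and peaks of 2000 bp or more hatched. Over the gene body the senescent SMC1 list holds peaks of 3977 and 6990 bp, the control SMC1 list holds separate pieces, and the control CTCF list holds a single peak of 12115 bp.

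THBS1, whose promoter is printed above, was covered by a domain of 5696 bp (chr15:39578736-39584431). Its SMC1 peak was 3987 bp in control, 4617 bp in ICM and 4903 bp in senescent cells, and the CTCF peak was 3480, 6002 and 2277 bp in the same order. THBS1 was thus wide in all 3 SMC1 lists, with an order for SMC1 that its CTCF peaks did not follow. MT2A was likewise wide in all 3 lists (chr16:56605912-56611047, 5136 bp), with SMC1 peaks of 2778, 2955 and 4847 bp and CTCF peaks of 3241, 5975 and 1749 bp, and the domain covered the entire gene. SPRY4 (chr5:142322584-142327076, 4493 bp) had SMC1 peaks of 3839, 4493 and 2360 bp and a CTCF peak in ICM-treated cells alone, of 5737 bp.

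SLC2A1 gave the largest domain wide in senescent cells alone (chr1:42958643-42963963, 5321 bp). The SMC1 peak was 1601 bp in control, 1672 bp in ICM and 5321 bp in senescent cells, and no CTCF list held a peak there. The domain reached 5095 bp upstream of the 5′ end and 225 bp into the gene, so nearly all of it lay before the promoter printed above. TBX2, a T-box transcription factor of lung mesenchyme, gave the largest domain wide in control alone (chr17:61395885-61400087, 4203 bp), with SMC1 peaks of 4203 bp in control, 1235 bp in ICM and 1106 bp in senescent cells and no CTCF peak in any list. It too lay upstream, reaching 3958 bp before the 5′ end and 244 bp into the gene. SLC2A1 and TBX2 thus mirrored each other, 1 wide in senescent cells and 1 in control, both upstream of a start site and both without a listed CTCF peak.

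FOXF1, a forkhead transcription factor of lung mesenchyme, was covered by a domain of 5425 bp (chr16:86505911-86511335) that reached 4616 bp upstream of the 5′ end. Its widest SMC1 peak was 2874 bp in control, 1847 bp in ICM and 2681 bp in senescent cells, and only the ICM list held a CTCF peak, of 4310 bp. No single peak filled this domain, which arose from peaks of different lists that overlapped end to end. The domain over TNFRSF12A, the receptor for the cytokine TWEAK (chr16:3020365-3024778, 4414 bp), covered the 5′ ends of 3 genes, with SMC1 peaks of 2830, 1907 and 4414 bp. SMTN, which encodes the cytoskeletal protein smoothelin, had a domain in its body (chr22:31080688-31085432, 4745 bp) with SMC1 peaks of 4745, 2616 and 2975 bp. ST3GAL1, a sialyltransferase gene on chromosome 8, had a domain of 4760 bp at its 5′ end with SMC1 peaks of 2222, 2934 and 4600 bp. The domain nearest LOC102724701 (chr21:6368414-6374308, 5895 bp) was wide in all 3 SMC1 lists at 5486, 4103 and 5874 bp and in all 3 CTCF lists at 6882, 6938 and 5931 bp. No filter for poorly mapped sequence was applied here, and mapping at this domain was not tested. In the remaining classes the largest domains were those over BORCS6 for ICM and senescent (chr17:8186383-8190686, 4304 bp), PLEKHG2 for control and ICM (chr19:39411053-39414717, 3665 bp) and CEBPB-AS1 for ICM alone (chr20:50192863-50195814, 2952 bp).

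**Figure D3:**
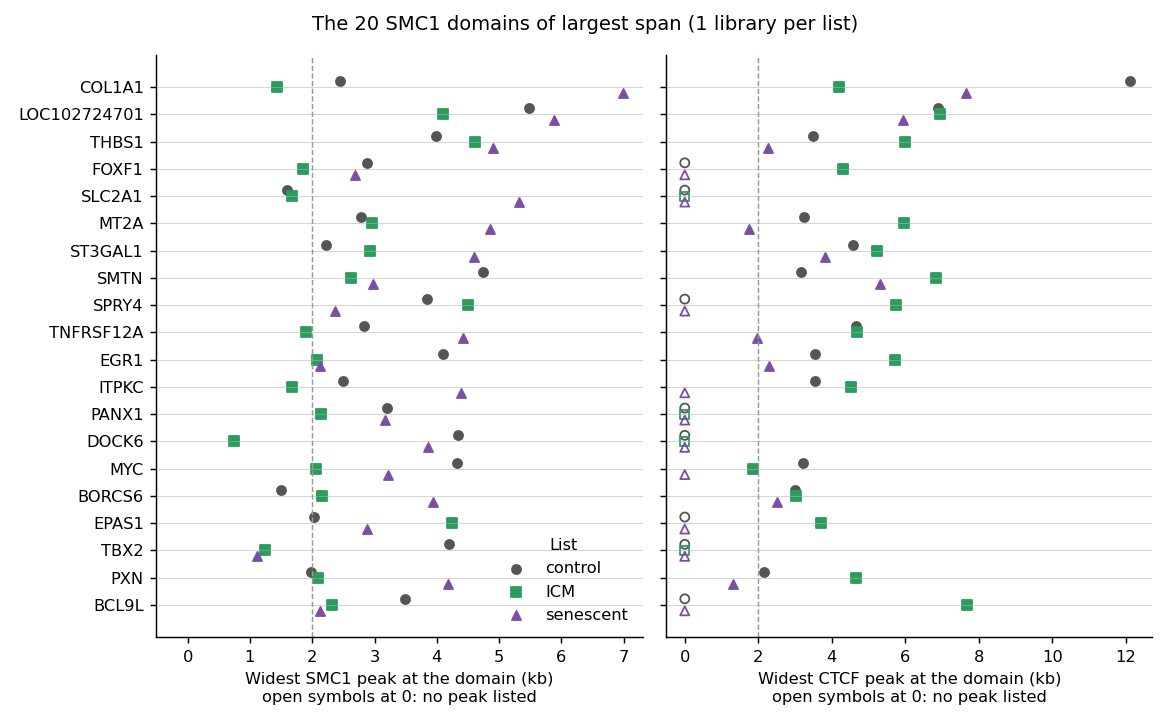
Width in kb of the widest SMC1 peak (left) and the widest CTCF peak (right) at the 20 domains of largest span, with 1 symbol per list, open symbols at 0 where a list holds no peak and a dashed line at 2000 bp. SLC2A1 and TBX2 show single SMC1 symbols far to the right of the other lists, and 4 of the 20 domains have no CTCF peak in any list.

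With respect to gene structure, 389 of the 801 domains (48.6%, 45.1 to 52.1%) covered the 5′ end of a protein-coding gene, while 25.3% of all merged SMC1 regions did so. A further 257 (32.1%) lay in the body of such a gene, 134 (16.7%) between such genes and 21 (2.62%) covered a 3′ end without a 5′ end. Among narrower regions these shares were 24.4% for 5′ ends, 40.2% for bodies, 34.1% between genes and 1.29% for 3′ ends. Wider intervals meet 5′ ends more readily, so the position of the SMC1 summit, which does not depend on width, was also compared. The summit lay within 1000 bp of a 5′ end in 41.1% (37.6 to 44.6%) of domains and in 26.5% (25.9 to 27.1%) of narrower regions. Among narrower regions with an SMC1 peak in all 3 lists this share was 35.1% (33.98 to 36.1%), closer to that of the domains. The gene table holds 1 outermost 5′ end per gene, and alternative promoters inside genes were counted as body. Noncoding genes did not enter these parts, so domains over them alone were counted as between genes.

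The share at 5′ ends differed between classes of domain. It was 54.0% (143 of 265) among domains wide in control alone, 49.2% (31 of 63) in ICM alone and 39.9% (34.1 to 45.8%, 114 of 286) in senescent cells alone. Domains wide in all 3 lists gave 55.4% (41.5 to 68.7%). The intervals of the control and senescent classes did not overlap, but each class rests on 1 library, and whether another culture would give the same order was not tested.

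Measured from the outermost annotated 5′ end, domains at 5′ ends reached further into the gene than upstream. Which start was in use in these cells was not measured. The 332 domains that covered a single protein-coding 5′ end reached a median of 1002 bp (885 to 1065 bp) upstream and 1484 bp (1379 to 1583 bp) downstream of it, and 211 of them (63.6%, 58.1 to 68.7%) reached further downstream than upstream. In narrower regions the medians were 519 bp upstream and 562 bp downstream, and 52.4% (50.9 to 53.9%) reached further downstream. MYC, the growth-promoting transcription factor gene, and PANX1, a membrane channel gene, had domains of 4328 bp and 4371 bp of which 3770 bp and 3773 bp lay downstream. Of the domains, 57 covered 2 or more protein-coding 5′ ends, and 39 held a divergent pair.

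**Figure D4:**
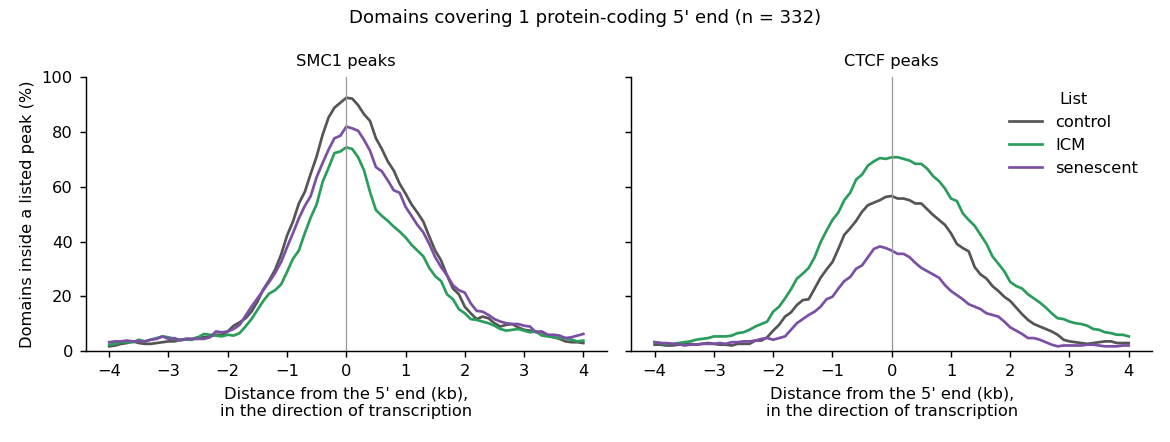
Share of the 332 domains with 1 covered protein-coding 5′ end that lie inside a listed peak, by distance in kb from the 5′ end in the direction of transcription, for the SMC1 lists (left) and the CTCF lists (right). At the 5′ end SMC1 peaks cover 92.5% of these domains in control, 74.4% in ICM and 81.9% in senescent cells, and CTCF peaks cover 56.6%, 70.8% and 36.8%.

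The profiles differed in order between the proteins. For SMC1, which chose the domains, the control list covered the largest share of these 5′ ends and the ICM list the smallest. For CTCF, which did not enter the rule, the ICM list covered the most and the senescent list the least. The CTCF lists differed in length, and the profile was not repeated with lists of equal length. At 1000 bp downstream, CTCF peaks still covered 43.1% of the domains in control, 55.7% in ICM and 21.99% in senescent cells, compared with 32.5%, 47.9% and 19.9% at 1000 bp upstream.

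CTCF peaks were present at more domains than at narrower regions. A CTCF peak overlapped 436 domains in control (54.4%, 50.9 to 57.9%), 541 in ICM (67.5%, 64.2 to 70.8%) and 395 in senescent cells (49.3%, 45.8 to 52.8%), beside 19.0%, 26.7% and 26.6% of all merged SMC1 regions. The CTCF lists differed in length, with 4673 peaks in control, 6728 in ICM and 8577 in senescent cells. With the lists cut by total signal to the length of the control list, the shares of domains were 54.4%, 57.0% and 35.2%. Having the SMC1 summit inside the CTCF peak is a measure that does not grow with the width of the domain. The summit was that of the widest SMC1 peak in any list, and the same summit was set against each CTCF list. With the full CTCF lists these shares were 52.8%, 66.7% and 45.3%, compared with 17.6%, 25.1% and 25.5% of narrower regions. Among narrower regions present in all 3 SMC1 lists they were 31.2%, 41.6% and 37.9%, so a gap remained beside regions of like presence. It was smallest in the senescent list. The percentile of SMC1 signal was higher at domains than at narrower regions, with medians of 69.1 and 48.9 in control, and its part in this gap was not tested.

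Where a CTCF peak was present, it was wider than at narrower regions. The median widest CTCF peak was 2638 bp (2578 to 2741 bp) in control, 2955 bp (2861 to 3034 bp) in ICM and 1872 bp (1781 to 1963 bp) in senescent cells. At narrower regions the medians were 1796, 1998 and 1164 bp, close to the medians over whole CTCF lists. CTCF peaks of 2000 bp or more lay at 364 domains in control, 498 in ICM and 173 in senescent cells, and 525 domains (65.5%, 62.1 to 68.8%) held one in at least 1 list, against 14.2% of narrower regions. Despite this width the CTCF peaks were not high: ranked by highest signal within their list, the highest CTCF peak at a domain had a median percentile of 44.4 in control, 46.3 in ICM and 41.0 in senescent cells, while at narrower regions the medians were 54.3, 53.8 and 58.2. Ranked by total signal, which is summed over the width, the medians were 71.7, 75.8 and 77.6 at domains. At narrower regions they were 52.95, 54.9 and 60.8. CTCF peaks at the domains were thus wider, of lower rank in height and of higher rank in total signal than at narrower regions. The shares of 65.5% and 14.2% are over all regions, with or without a CTCF peak. A wider region meets more CTCF peaks and wider ones more readily, and the part of region width in these contrasts was not tested.

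**Figure D5:**
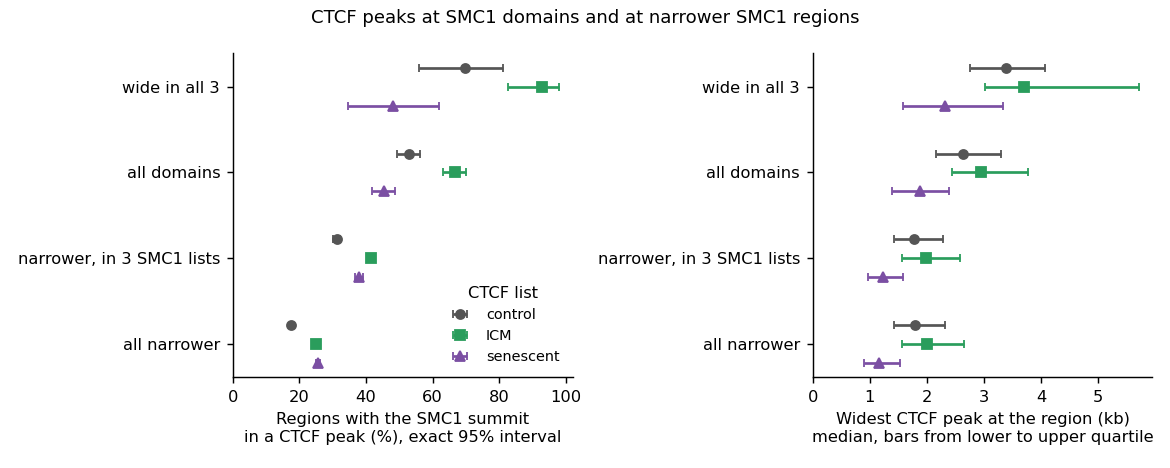
Left, the share of regions whose SMC1 summit lies in a CTCF peak, with exact 95% intervals; right, the median width in kb of the widest CTCF peak at the region, with bars from the lower to the upper quartile. Domains sit above narrower regions in each of the 3 CTCF lists, and CTCF peaks at the domains have medians of 2638, 2955 and 1872 bp in control, ICM and senescent cells.

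The summits of both proteins were further apart at domains. The median distance between the SMC1 summit and the nearest CTCF summit was 167 bp in control, 185 bp in ICM and 114 bp in senescent cells at domains, and 68, 71 and 43 bp at narrower regions, and a wide peak leaves more room for such a distance. Domains wide in all 3 SMC1 lists met a CTCF peak at 42 of 56 in control (75.0%, 61.6 to 85.6%), 53 in ICM (94.6%, 85.1 to 98.9%) and 34 in senescent cells (60.7%, 46.8 to 73.5%), with median widths of 3396, 3706 and 2319 bp. This was the highest share of any class in control and ICM, while in the senescent CTCF list domains wide in ICM and senescent cells had a higher one (21 of 29, 72.4%, 52.8 to 87.3%), with overlapping intervals. At the other end, 243 of the 801 domains (30.3%, 27.2 to 33.7%) held no peak of any CTCF list, and 91 (11.4%) met CTCF in the ICM list alone, compared with 6 domains each (0.749%) in the control and the senescent list alone. Of the narrower regions 3.77% met CTCF in the ICM list alone, 0.294% in the control list alone and 5.34% in the senescent list alone, so a CTCF peak of the senescent list alone was the most frequent of these at narrower regions and rare at domains. The CTCF lists differed in length, and these counts were not repeated with lists of equal length.

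CTCF width did not follow the class of SMC1 width. At domains wide in control alone the median CTCF peak was 2462 bp in control and 1794 bp in senescent cells, and at domains wide in senescent cells alone it was 2623 bp and 1848 bp. In both classes the control CTCF peak was thus the wider one. Across the 359 domains with a peak in all 3 CTCF lists, the ICM peak was wider than the control peak in 257 (71.6%, 66.6 to 76.2%) and the senescent peak was narrower than the control peak in 310 (86.4%, 82.4 to 89.7%). At 3313 narrower regions with a peak in all 3 CTCF lists these shares were 67.1% and 82.5%, so that the order of CTCF widths held there too.

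The presence of CTCF also varied with the part of the gene. In control it overlapped 58.9% of domains at 5′ ends, 45.5% in gene bodies and 56.0% between genes. In ICM the shares were 74.6%, 57.6% and 65.7%, and in senescent cells 48.8%, 42.4% and 59.7%. Domains in gene bodies had the lowest share in each list. Among the 21 domains at 3′ ends, a CTCF peak lay at 15 in control, 15 in ICM and 16 in senescent cells. GAPDH, a glycolytic gene, carried domains at both ends that were wide in all 3 lists: the one at the 5′ end (chr12:6532066-6535404) had SMC1 peaks of 3208, 2718 and 2713 bp, and the one at the 3′ end (chr12:6537485-6540987), shared with the 3′ end of IFFO1, had 3380, 2848 and 2585 bp. A single CTCF peak overlapped both domains in ICM (9146 bp) and in control (6392 bp), and the ICM peak was the widest CTCF peak at any domain in that list.

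Genes of the fibroblast programme were among those covered. In all, domains overlapped 752 of 19970 protein-coding genes (3.77%), 419 by a domain wide in control, 168 in ICM and 420 in senescent cells. The counts per list below stand beside that split. The lists below were chosen with earlier results of these data known, gene length was not taken into account, and their shares are given only beside that background. Of 15 fibroblast marker genes 6 were overlapped, while COL3A1, COL6A1, COL6A2, COL6A3, THY1, LUM, DCN, FAP and S100A4 were not. None of 10 epithelial, 6 endothelial and 6 blood cell markers was overlapped. At a background of 3.77%, lists this short cannot be told from all genes by holding none. VIM, the intermediate filament gene of mesenchymal cells, was wide in all 3 lists, with SMC1 peaks of 2216, 2473 and 2014 bp. PDGFRA, a platelet-derived growth factor receptor gene, had 2 domains in its body, 1 wide in ICM alone with 1524, 2505 and 1342 bp and 1 wide in control alone with 2225, 1028 and 904 bp. Another domain, wide in both control and ICM, began at chr4:54226434 and was named PDGFRA without overlapping the gene.

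Of 25 genes of the extracellular matrix 10 were overlapped, 9 of them by a domain wide in control and 3 each by one wide in ICM and in senescent cells. FBN1, which encodes the microfibril protein fibrillin, had SMC1 peaks of 3175, 1264 and 1455 bp and no CTCF peak. COL12A1, COL5A1 and the shared promoter of COL4A1 and COL4A2, all collagen genes, were wide in control alone, with 3124, 3016 and 2647 bp, and their ICM peaks measured 702, 1535 and 1077 bp. LOX, which encodes the collagen crosslinking enzyme lysyl oxidase, had a peak of 2080 bp in control and none in the other SMC1 lists. CCN2, which encodes connective tissue growth factor, ran the other way with 1866, 2005 and 2645 bp. All 10 matrix genes had the domain at their 5′ end, COL1A1 besides those in its body.

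Of 24 actin cytoskeleton genes 12 were overlapped, 7 by a domain wide in control, 1 in ICM and 7 in senescent cells. VCL, which encodes the focal adhesion protein vinculin, had SMC1 peaks of 1134, 1320 and 3309 bp. TAGLN, a smooth muscle actin-binding protein gene, had 1796 bp in control, none in ICM and 2842 bp in senescent cells. FLNA and FLNC, which encode actin-crosslinking filamins, were instead wide in control alone, with 2484 and 2974 bp. PLEC, which encodes the linker protein plectin, carried 5 domains in its body on chromosome 8, the most of any protein-coding gene, with no CTCF peak at any of them. The genes of this list were thus divided between control and senescent cells, with the ICM list holding a wide peak at PLEC alone.

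Immediate early genes, which respond within minutes to growth factors and stress, were overlapped in 8 of 21 cases, in 7 of them by a domain wide in control, in 3 in ICM and in 5 in senescent cells. EGR1 had SMC1 peaks of 4107, 2081 and 2129 bp and JUN had 2674, 2192 and 2684 bp. FOS and JUNB were wide in control alone, with 2384 and 2219 bp, and their senescent peaks measured 952 and 838 bp. FOSL2 was wide in senescent cells alone, with 1243, 1684 and 3268 bp. DUSP1, which encodes a phosphatase that turns off MAP kinases, had 2702, 1299 and 3153 bp.

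Of 25 mesenchymal transcription factor genes 9 were overlapped, 7 by a domain wide in control, none in ICM and 4 in senescent cells. FOXL1, next to FOXF1 on chromosome 16, had SMC1 peaks of 3780, 1819 and 3624 bp. RUNX1 had 3817, 1342 and 2750 bp, and RUNX2, the osteoblast regulator, had 2808 bp in control and no peak elsewhere. NR2F2, a nuclear receptor gene, was wide in senescent cells alone, with 932, 471 and 2106 bp. GLI2, a Hedgehog pathway effector gene, had 1628, 1789 and 2091 bp, and TBX3, a T-box gene, had 2149, 1695 and 1262 bp. SNAI2, a zinc finger repressor gene, had 2647, 1094 and 1135 bp. Among the 9 genes the narrowest peak was thus in the ICM list at RUNX1, FOXL1, FOXF1, NR2F2 and SNAI2, in control at GLI2 and in senescent cells at TBX3 and TBX2, while RUNX2 had a peak in control only.

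Genes tied to growth arrest and the secretory phenotype of senescent cells were overlapped in 3 of 12 and 3 of 20 cases. CDKN1A, which encodes the cell cycle inhibitor p21, had SMC1 peaks of 2620, 702 and 1179 bp, and GADD45A and GADD45B, which respond to DNA damage, had 2407, 626 and 947 bp and 3315, 1212 and 1376 bp. All 3 were wide in control alone. IL6, the interleukin gene, was also wide in control alone at 2020, 1579 and 1728 bp. IGFBP5, which encodes an insulin-like growth factor binding protein, carried 2 domains of 2344 and 2060 bp in its body (chr2:216673252-216675595 and chr2:216678042-216680101) in senescent cells, with no SMC1 peak in the control or ICM list and no CTCF peak in any. VEGFA, the vascular growth factor gene, was wide in senescent cells alone at 1203, 1460 and 2013 bp.

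Of 15 growth factor receptor and related genes 6 were overlapped, none at the 5′ end, and among them IGF1R had SMC1 peaks of 666, 2198 and 2324 bp and EPHA2 had 2355, 1651 and 3015 bp. Of 7 HMG genes, which encode the high mobility group proteins to which the ICM targets belong, HMGA2 alone was overlapped, at 1883, 2009 and 1108 bp and with no CTCF peak. None of 14 genes of CTCF and the cohesin machinery was overlapped, which at 3.77% of all protein-coding genes cannot be told from the background. Of 16 abundant noncoding RNA genes 4 were overlapped, beside 227 of all 18177 long noncoding RNA genes (1.25%). NEAT1, the scaffold of paraspeckles, had a domain at its 3′ end (chr11:65444431-65447827) with no SMC1 peak in control, 926 bp in ICM and 3397 bp in senescent cells and no CTCF peak. H19, an imprinted gene, had none in control, 2430 bp in ICM and 1885 bp in senescent cells (chr11:1997838-2000267), with CTCF peaks of 5695, 6128 and 3762 bp. NEAT1 and H19 were thus both without an SMC1 peak in control, at places that differed in CTCF.

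Some genes carried several domains. Of the 752 protein-coding genes overlapped, 28 met 2 or more domains, among them KDM6B, a histone demethylase gene whose 2 domains (chr17:7833142-7837277 and chr17:7841126-7845264) were wide in all 3 lists. BCAR1, an adhesion scaffold gene, met 3 domains, wide in senescent, control and senescent cells in order along the chromosome. Along the chromosomes, 13 runs of 3 or more domains less than 50000 bp apart held 44 domains in all. The run of BCAS3, TBX2 and LINC02875 on chromosome 17 consisted of domains wide in control alone, and that of GNAT1 and GNAI2 on chromosome 3 of domains wide in senescent cells alone, whereas most runs mixed lists, as at COL1A1 and PLEC.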

How the data were processed

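CUT&Tag libraries of CTCF and SMC1 were made from IMR90 cells in 3 conditions, 1 library per group. Per the methods and processing notes, the authors mapped reads to hg38 (GRCh38) with Bowtie2 2.3.4.1, used Picard 2.20.7, counted E. coli reads for calibration, and called peaks with SEACR 1.3 in stringent mode separately in each library, keeping the top 1% of regions. The deposited lists give each peak's position, its total signal (coverage summed over the peak) and its highest signal. A common scale between lists was not established, so signal was only ranked or described within a list.

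The members and the gene lists were chosen with earlier results of these data known. Wide peaks were merged at an overlap of 1 bp or more, and the summit was the middle of the region of highest signal of the widest SMC1 peak in any list. Gene positions came from RefSeq on GRCh38. Strand came from the RefSeq promoter table or, by symbol and chromosome, from GENCODE, and was found for 19625 of 19970 protein-coding genes (98.3%); genes without a strand had no 5′ end. A domain counted as 5′ end where it covered one of a protein-coding gene, then as 3′ end, body or between genes, with noncoding genes left aside. Domains were named by the protein-coding gene they overlapped most, otherwise by any gene overlapped or the nearest 5′ end. The text names the 10 domains of largest span, the largest in each class, those with the widest CTCF peaks, those over listed genes, and those on either side of the limit, except items that are not reported here; MYC, PANX1, KDM6B, BCAR1, the tRNA and other small RNA domains and the domains in runs were added after their values were seen. Shares carry exact Clopper-Pearson intervals. No test between conditions was made. Merging and overlap were tested on simulated peaks. Python 3.11.15 with pandas 2.3.3, scipy 1.17.1 and matplotlib 3.10.9 was used. The mitochondrial peak of each list was left out. The genome sequence at hand was of another build, so no peak sequence was read. Alternatives covered the width limit, joining, strength, list length, merging and the rules for 5′ ends and CTCF overlap.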

Additional observations from a re-analysis of the deposited data

Results flagged for a closer look

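The number of peaks of 2000 bp or more did not change alike for SMC1 and CTCF. From the control to the ICM list it changed by a factor of 0.413 for SMC1 (424 to 175 peaks) and of 1.815 for CTCF (1777 to 3226). From the control to the senescent list the factor was 1.052 for SMC1 (446 peaks) and 0.409 for CTCF (726). The lists differed in length: as a share of their own list, these peaks made up 2.85%, 0.983% and 3.45% for SMC1 in control, ICM and senescent cells, and 38.0%, 47.95% and 8.46% for CTCF. With 1 library each, these differences between the proteins were not tested, and the control libraries also differed in p number, 16 for SMC1 and 21 for CTCF.

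The mitochondrial peak that was set aside held 12.4% of the listed SMC1 signal in control, 20.55% in ICM and 31.4% in senescent cells, above the control level in both conditions. For CTCF it held 27.7%, 14.4% and 18.0%. Its part in the number of wide SMC1 peaks was not tested.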

How the results depend on the processing

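Of 83 alternative values for 9 results, 35 stayed within the interval of the reported value (within 1.5 times for the number of domains) and 48 moved. Values below are in the order control, ICM and senescent. A limit of 1500 bp gave 2772 domains, 9.78% wide in all 3 lists, 43.5% at 5′ ends, CTCF at 39.3%, 51.8% and 39.6%, and CTCF widths of 2304, 2558 and 1677 bp. Limits of 2500 and 3000 bp gave 270 and 110 domains, CTCF at 60.0% and 63.6% in control and 75.9% and 81.8% in ICM, and widths of 3054, 3459 and 2060 bp and of 3332, 3960 and 2277 bp. Joining peaks less than 1000 bp apart gave 1468 domains, 15.5% wide in all 3 lists, CTCF at 48.5% in control and 61.2% in ICM, and a senescent CTCF width of 1696 bp. The upper 50% of each SMC1 list by highest signal gave 520 domains with CTCF at 63.8%, 76.7% and 56.9%. Equal numbers of widest SMC1 peaks gave 390 domains with CTCF at 57.9% in control and 72.3% in ICM, and widths of 2942, 3236 and 1995 bp. The share at 5′ ends was 54.7% with ends up to 1000 bp away, 54.9% with all genes and 41.1% by summit. Asking for 50% of the CTCF peak inside the domain gave 50.7% in control, 60.5% in ICM and an ICM width of 2843 bp, and asking for its summit gave 62.9% in ICM. CTCF lists cut to 4673 peaks by total signal gave 57.0% and 3069 bp in ICM and 35.2% and 2110 bp in senescent cells. The SMC1 summit inside the CTCF peak, added after the data were seen, gave 45.3% in senescent cells. The depth behind the lists is unknown, so a narrower or missing peak is one not listed at the chosen threshold. No paired analysis was possible because each group has 1 library.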

Other observations

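Small RNA genes were also among those covered, and their shares stand beside 3.77% of protein-coding and 1.25% of long noncoding RNA genes. Of the 443 tRNA genes annotated by RefSeq, 25 (5.64%) lay in 12 domains, which were wide in control in 7 cases, in ICM in 3 and in senescent cells in 7, and 99 narrower regions also held a tRNA gene. CTCF peaks lay at 9 of the 12 in control, 11 in ICM and 8 in senescent cells. The domain over BORCS6 held 4 tRNA genes, the most in any domain, with SMC1 peaks of 1501 bp in control, 2164 bp in ICM and 3944 bp in senescent cells. RMRP, the RNA of RNase MRP, was wide in senescent cells alone, with SMC1 peaks of 1585, 885 and 2021 bp. Domains also overlapped 15 of 1911 miRNA genes (0.785%), among them MIR22, whose domain (chr17:1713745-1715820) was wide in senescent cells alone with SMC1 peaks of 1667, 1166 and 2076 bp and CTCF peaks of 5118, 6525 and 4467 bp.

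Along the genome, the share of merged SMC1 regions that held a wide domain was 5.41% on chromosome 17 (70 domains), 4.98% on chromosome 8 (47), 4.95% on chromosome 11 (69) and 4.80% on chromosome 19 (51). It was lowest at 1.96% on chromosome 18 (7), 2.19% on chromosome 7 (22), 2.32% on chromosome 3 (32) and 2.39% on the X chromosome (6). Over all chromosomes, 801 domains stood beside 22580 merged regions. Gene density was not taken into account in these shares. Per 100 protein-coding genes, the number of domains was 5.99 on chromosome 17, 6.58 on chromosome 8, 5.30 on chromosome 11 and 3.515 on chromosome 19. By this measure the X chromosome was lowest at 0.708.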
